A study of Mus musculus with 8 samples.

Results

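The genes described here are the protein-coding mouse genes with a symbol of the form Zfp plus a number, on the autosomes other than 4 and 7. The rule found 243 such genes on 17 chromosomes, of 21887 protein-coding genes on the autosomes and sex chromosomes. The histone mark H3K36me3, trimethylation of histone H3 at lysine 36, had been mapped with ChIP-seq in embryonic stem cells of the mouse, grown as feeder-free spheres in LIF and 2i medium. All cells, controls included, carried a doxycycline-inducible knockdown of Setd2. Control cells received no doxycycline (Dox -), and knockdown cells (Dox +) received 1 µg/ml for 4 days. Each condition had 2 ChIP and 2 input libraries, and the authors called peaks on the merged replicates, so each condition is 1 peak list with no replicate spread and no test between conditions. The labels do not say whether the line is 1 clone. The file headers name the lists shCont and shSetD2, although the labels describe 1 inducible line with and without doxycycline.

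Most Zfp genes encode proteins with arrays of C2H2 zinc fingers, in which each finger folds around a zinc ion and contacts a few bases of DNA. Many of those in clusters also carry a KRAB domain, which recruits the corepressor Trim28 and, through it, the H3K9 methyltransferase Setdb1 to retrotransposons and imprinted regions. In such genes the whole finger array usually lies in 1 long exon at the 3' end. Setd2 travels with elongating RNA polymerase II and trimethylates H3K36 in the bodies of transcribed genes, with the mark growing toward the 3' end. A peak shows the mark on the chromatin of a gene and does not measure its transcript.

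The merged ChIP libraries kept 36244210 tags in control and 29416169 in knockdown after removal of duplicates, and gave 30634 and 3040 peaks. Control peaks lay over 40.1% of Setd2 itself, which had no knockdown peak; a peak does not measure its transcript. The pluripotency genes Nanog, Pou5f1, Esrrb and Tfcp2l1 all had a control peak, over 44.9% to 98.3% of their length.

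Most of the Zfp genes carried the mark in control cells. A gene was called marked when a peak had its midpoint inside the gene. By that rule 163 of 243 (67.1%, exact binomial 95% interval 60.8 to 73.0) had a control peak, where 41.2% of all protein-coding genes had one. The interval covers counting error only, and neighbouring genes are not independent. After Setd2 knockdown 30 of the 243 (12.3%, 8.49 to 17.2) had a peak, against 4.95% of all protein-coding genes. Of the 163 marked genes 27 (16.6%, 11.2 to 23.2) also had a knockdown peak, beside 10.6% of all marked protein-coding genes. A further 136 had a peak in control alone, 3 in knockdown alone and 77 in neither list. No control-covered base pair was found in 75 members (30.9%), against 55.2% of all protein-coding genes. Knockdown alone was seen in 0.585% of all protein-coding genes.

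The loss in covered length was larger than the loss in number. Control peaks covered 1319.9 kb of the 243 genes, 17.1% of their summed length, and knockdown peaks 70.8 kb, or 0.920%. The knockdown total was thus 5.37% of the control total, beside 2.77% over all protein-coding genes. The median covered share of a marked member was 34.8% in control (quartiles 15.7% and 52.0%), against 37.9% for all marked protein-coding genes. Coverage of at least 50% of the gene was seen in 51 members (21.0%; all genes, 17.0%) in control and in 0 in knockdown, where 36 of all protein-coding genes (0.164%) reached it. The highest knockdown coverage of a member was 32.6%. In the 27 genes with a peak in both lists the median coverage was 42.2% in control and 9.97% in knockdown.

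Gene length bears on such counts, since a long gene is more easily hit by a peak, so members were set beside all protein-coding genes of like length. Among genes under 10 kb, 54.2% of 24 members and 21.3% of all genes had a control peak. From 10 to 20 kb the shares were 64.8% of 105 members and 50.5% of all genes, and from 20 to 40 kb 73.8% of 80 members and 54.5% of all. At 40 kb or more they were 67.6% of 34 members and 52.4%. The share of members was the higher one in each of these 4 length classes, and likewise for knockdown peaks, from 8.33% against 1.65% in the shortest to 20.6% against 8.49% in the longest. From 10 to 50 kb, 131 of 192 members (68.2%) had a control peak, against 53.1% of all genes of that length, and 23 (11.98%) had a knockdown peak, against 5.86%. In marked genes, by contrast, the median covered share of members was the lower one in each class, for instance 41.9% against 54.1% from 10 to 20 kb.

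The Zfp genes of the chromosomes left out by the rule were set beside the members. On chromosome 7, 72 of 90 Zfp genes (80%, 70.2 to 87.7) had a control peak and 16 of the 72 (22.2%, 13.3 to 33.6) kept one. On chromosome 4, 21 of 27 (77.8%, 57.7 to 91.4) had a control peak and 11 of the 21 (52.4%, 29.8 to 74.3) kept one. The length under knockdown peaks was 44.4% of that under control peaks on chromosome 4 and 11.3% on chromosome 7. The intervals of the kept share overlap between the members (11.2 to 23.2) and chromosome 7 but not between the members and chromosome 4. No test between these gene sets was made.

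These counts depended on the cutoff set on the peaks. The caller score did not follow length and tags throughout. The control peak of Zfp335, with 27868 bp and 2087 tags, scored 112.8, and that of Zfp952, with 3070 bp and 201 tags, scored 449.1. A score cutoff is thus not a plain cut on peak strength. With a caller score of 100 or more, 141 members had a control peak (all genes, 34.8%) and 13 a knockdown one (all genes, 1.69%), and 8.51% of the 141 kept one, beside 4.38% of all such genes. The caller's empirical FDR of 1% or less left 159 members with a control peak (all genes, 40.6%) and 3 with a knockdown peak (all genes, 1.15%). The kept share was then 1.89% for members and 2.29% for all genes, so the members no longer had the higher one. That filter kept 588 of 3040 knockdown peaks, with a median score of 53.5 against 85.2 for the rest, so it removed the higher-scoring ones. With as many top-scoring control peaks as there were knockdown peaks, 44 members had a control peak (all genes, 11.3%) and 38.6% of these had a knockdown peak, beside 19.4% of all.

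Of the 15 members with the highest control-covered share 11 were isolated genes, beside 111 of all 243. Among the 15, 3 (Zfp599, Zfp12 and Zfp57) had a knockdown peak, beside 27 of all 163 marked members (16.6%). Zfp655 ranked first, on chromosome 5 at 145231595 to 145247306 (mm10), with 89.5% of its length under 2 control peaks and none under knockdown peaks. Zfp335, which encodes a nuclear zinc finger protein tied to H3K4 methyltransferase complexes, had 88.9%. Its control peak of 27868 bp reached beyond the gene, which also overlaps a non-coding antisense gene. Zfp281, a pluripotency-linked transcription factor gene, had 87.8%, and Zfp622, a factor in maturation of the large ribosomal subunit, 86.8%. Zfp330, a nucleolar protein gene, had 86.6% and Zfp692 85.1%. Zfp42, better known as Rex1 and a standard marker of the naive state, was covered over 84.4% on chromosome 8 at 43295067 to 43307009, under 2 control peaks. Zfp706, a small zinc finger gene, had 81.6%, Zfp319 80.2%, Zfp131 77.8%, Zfp871 76.0% and Zfp687 75.95%. None of these 12 genes had a base pair under a knockdown peak.

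The 10 largest marked territories in base pairs lay in genes of 26292 to 183076 bp, where the median length of a member was 19286 bp. Zfp236 (chromosome 18) had 42115 bp under 16 control peaks, the highest number of peaks among the members, over 42.4% of its length. Zfp951 on chromosome 5 had 30963 bp under 8 peaks, and Zfp638, which encodes a protein that silences unintegrated retroviral DNA, 26062 bp. Zfp516 had 25766 bp, Zfp704 25107 bp, Zfp64 23834 bp, Zfp808 20890 bp, Zfp131 20456 bp, Zfp809 19841 bp and Zfp777 18479 bp. Of these 10 genes, Zfp951 and Zfp809 had a knockdown peak, beside 27 of all 163 marked members (16.6%).

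The marked isolated genes spread over all 17 chromosomes. The most covered isolated gene of a chromosome ranged from Zfp365 on chromosome 10 (5.15%) to Zfp655 on chromosome 5 (89.5%). Between them lay Zfp148 on chromosome 16 (10.8%), Zfp395 on 14 (20.2%), Zfp91 on 19 (39.2%), Zfp3 on 11 (41.6%), Zfp410 on 12 (53.7%), Zfp422 on 6 (55.0%) and Zfp202 on 9 (74.9%). Of the 17 genes so named 1, Zfp57 on chromosome 17, had a knockdown peak, beside 11 of all 82 marked isolated members (13.4%).

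**Figure D1:**
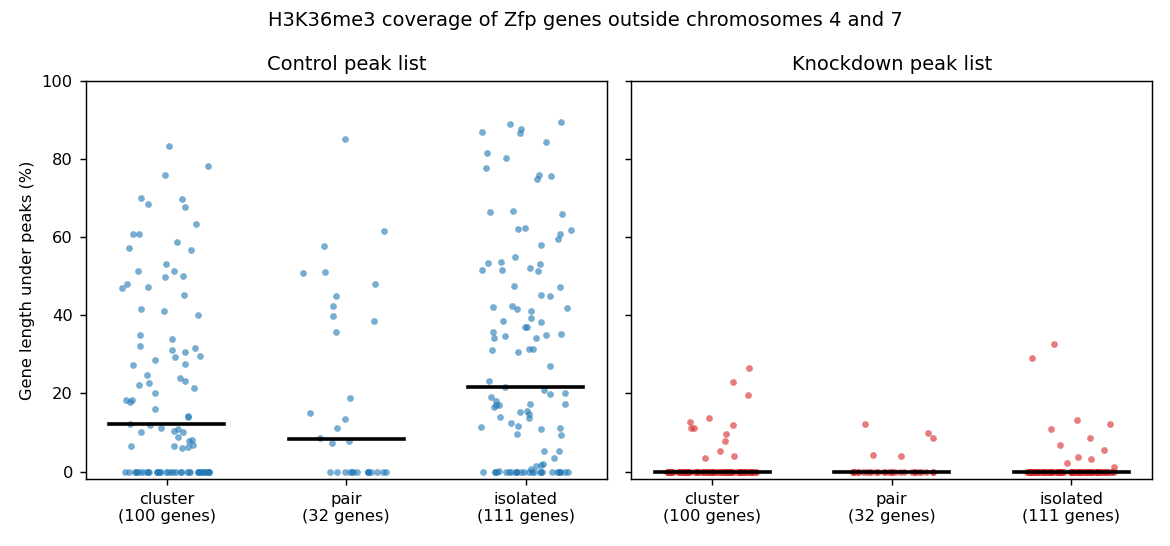
Percent of gene length under H3K36me3 peaks (vertical axis) for each of the 243 genes, as points, in the control list (left) and the knockdown list (right); genes are split into clusters (100), pairs (32) and isolated genes (111), with horizontal jitter only for display and black bars at the medians. Control values spread from 0 to 89.5%, with medians of 12.1%, 8.24% and 21.8%, whereas the knockdown medians are 0 and the highest point is 32.6%.

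Clustered and isolated genes were then compared. Genes were chained when the gap to the next member was at most 200 kb, which gave 17 clusters of 3 or more with 100 genes, 16 pairs with 32 genes and 111 isolated genes. Only members counted as neighbours, so an isolated gene can lie beside zinc finger genes with other names. Zfp831, Zfp966 and Zfp970, in the chromosome 2 stretch described below, were classed as isolated. A control peak was present in 63 of 100 clustered genes (63.0%, 52.8 to 72.4), in 18 of 32 paired genes (56.3%, 37.7 to 73.6) and in 82 of 111 isolated genes (73.9%, 64.7 to 81.8). The isolated share exceeded the clustered share by 10.9 percentage points, with a counting interval of -2.31 to 23.8, which includes 0. A knockdown peak was present in 13 clustered genes (13.0%), 5 paired genes (15.6%) and 12 isolated genes (10.8%), so the isolated share was lower by 2.19 points (interval of the difference -11.8 to 7.20). Under the midpoint rule neither difference was larger than the counting error. The control difference was larger than it with a caller score of 100 or more (14.7 points, 0.748 to 28.1) and with 1 bp of the gene under a peak (13.5 points, 0.559 to 26.1). Marked genes of the 3 classes had median covered shares of 29.6% (clustered), 39.2% (paired) and 36.4% (isolated).

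Most clusters held both marked and unmarked genes. In 13 of the 17 clusters some members had a control peak and others had none, in 3 all had one, and in 1 none had. Of the 16 pairs, 6 had a peak in both genes, 6 in 1 gene and 4 in neither.

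The largest cluster, on chromosome 13 from 67038594 to 67827000, held 19 members, 11 of them marked in control and 1 in knockdown. Its most covered genes were the neighbours Zfp58 (45.2%), Zfp87 (47.3%) and Zfp748 (46.9%), whereas Zfp455, Zfp458 and Zfp457 formed a run of 3 neighbours with no base pair under a peak. Zfp87 was the member with a knockdown peak (11.04%). Control peaks covered 9.93% of the whole cluster span and knockdown peaks 0.748%.

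The next cluster, on chromosome 17 from 21383707 to 22456689, held 18 members, 9 of them with a control peak. Zfp229 (63.5%), Zfp758 (40.2%) and Zfp51 (32.1%) were the most covered, and Zfp943, Zfp947 and Zfp994 were 3 neighbours without any. Zfp758 alone kept a peak, over 3.97% of its length. The span was covered to 5.68% in control.

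A second cluster on chromosome 17, from 32765496 to 33110707, had a control peak in 6 of 8 members, led by Zfp871 (76.0%), Zfp870 (68.4%) and Zfp763 (31.1%). Zfp811 and Zfp563 had none, and Zfp763 was the member with a knockdown peak (11.8%).

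**Figure D2:**
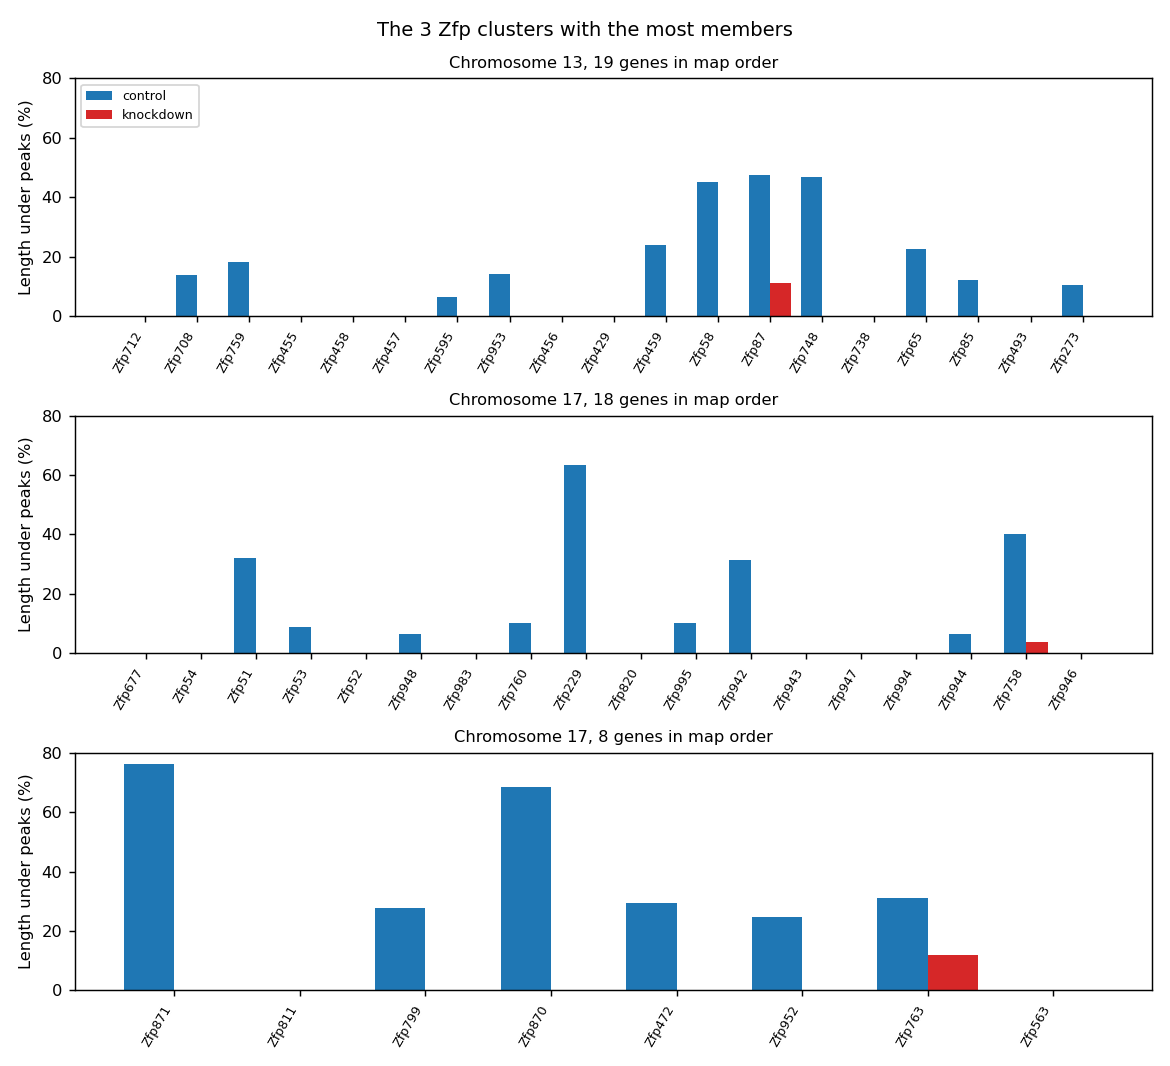
Percent of gene length under peaks (vertical axis) for each member, in map order along the chromosome, in the 3 clusters with the most members; blue bars are the control list and red bars the knockdown list. Each cluster holds both genes with a blue bar and genes without one, some of them in runs of neighbours, and 1 gene with a red bar, Zfp87 (11.04%), Zfp758 (3.97%) and Zfp763 (11.8%).

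Some stretches stood at the ends of this range. These were picked after their values had been seen. On chromosome 9, from 22055411 to 22307814, 4 of 5 clustered members (Zfp872, Zfp809, Zfp599 and Zfp810) had a knockdown peak. Zfp809 and Zfp599 overlap each other and share 1 knockdown peak of 3608 bp. By contrast 0 of 7 members of a chromosome 6 cluster, from 47815536 to 48086986, had a knockdown peak, although 6 had a control peak, with Zfp777 covered over 57.1%. No member had a knockdown peak in 7 of the 17 clusters, and 12.3% of all members had one, so a count of 0 is not particular to this cluster. Near the end of chromosome 2, from 174598682 to 178078425, none of the 10 members from Zfp831 to Zfp931 had a base pair under a peak in either list. The 24 other protein-coding genes in that stretch had no peak either, while 13 control peaks and 3 knockdown peaks lay in the stretch outside protein-coding genes. Members of such stretches can be near copies of each other, and the sources used here do not give the treatment of reads with several matches. Its part in these values was not tested.

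The members with the most knockdown coverage and those with a known role in silencing are given first. Zfp11, on chromosome 5 at 129654595 to 129670088, had the highest knockdown coverage, with 42.2% of its length under 1 control peak and 32.6% under 2 knockdown peaks. All 5054 bp of the knockdown peaks lay inside the control peak, so 77.3% of the control-covered length was still called. Zfp57, whose protein protects imprinted methylation, went from 75.7% to 29.1% on chromosome 17 at 37001163 to 37010729. Zfp445, a partner of Zfp57 in imprint maintenance, went from 35.1% to 19.6% on chromosome 9 at 122848910 to 122886851. Its single control peak of 13311 bp had a fold over background of 9.59 in the authors' table and 1182 tags. Inside it lay 3 knockdown peaks, the strongest with a fold of 5.62 and 190 tags. The caller's empirical FDR was 100% for this control peak and 8.33% for that knockdown peak, so neither passed the cutoff of 1% or less. Zfp445 overlaps Zkscan7. Zfp809, whose protein silences murine leukaemia proviruses in stem cells, went from 69.7% to 12.7%, and the overlapping Zfp599 from 83.3% to 22.9%.

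In the other members with a peak in both lists the knockdown coverage ran from 1.12% in Zfp277 to 26.5% in Zfp263, which had 67.6% in control. Zfp12 went from 78.2% to 13.7%, Zfp951 from 53.5% to 13.1%, Zfp90 from 35.2% to 12.2% and Zfp605 from 38.5% to 12.1%. Zfp930 went from 51.7% to 10.9%, Zfp68 from 57.8% to 9.97%, Zfp2 from 49.8% to 9.70% and Zfp334 from 61.5% to 8.69%. In Zfp958, Zfp938, Zfp267 and Zfp810, covered over 34.0% to 51.5% in control, knockdown peaks held 5.31% to 8.63%. Zfp934 (7.80% to 4.19%) and Zfp286 (11.1% to 3.87%) were low in both lists. At least 10% of the gene was under knockdown peaks in 14 of the 243 members (5.76%), and in 1.71% of all protein-coding genes. In control 147 members reached it, beside 35.6% of all, and 13 of the 147 (8.84%) reached it in knockdown too, beside 4.52% of all genes that reached it in control.

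A knockdown peak without a control peak was found in Zfp207, Zfp560 and Zfp872. Zfp207, which encodes a spindle assembly factor also tied to stem cell splicing, had a knockdown peak of 1420 bp with 50 tags. The control peak nearest to that peak was 15466 bp away, and another control peak covered 64 bp of the gene. Zfp560 had a peak of 1404 bp with 53 tags, and the nearest control peak was 51393 bp away. In Zfp872 the knockdown peak of 2340 bp lay over the start of the gene and shared 1628 bp with a control peak whose midpoint was outside it. Their caller scores (-10 log10 p, as the caller gives it) were 58.3, 81.5 and 130.9, where the list's lowest score was 50.01.

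**Figure D3:**
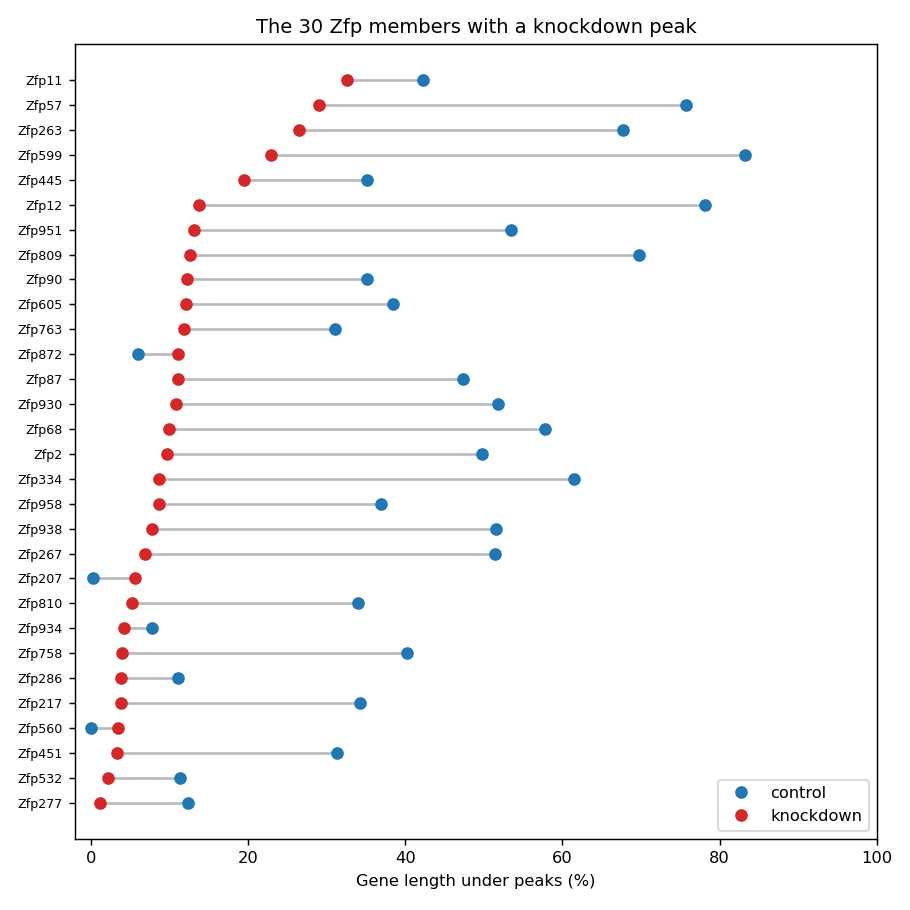
Percent of gene length under control peaks (blue) and knockdown peaks (red), on the horizontal axis, for the 30 members with a knockdown peak, ordered by knockdown coverage; grey lines join the values of a gene. Coverage was lower in knockdown for 27 genes and higher for Zfp872, Zfp207 and Zfp560, and Zfp11 shows the highest red point (32.6%).

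The knockdown peaks in members were nearly all placed inside control territory. Of 34 knockdown peaks with their midpoint in a member, 32 (94.1%, 80.3 to 99.3) shared 1 bp or more with a control peak, and the exceptions were those of Zfp207 and Zfp560. Over all protein-coding genes 80.6% (78.4 to 82.6) did. Conversely, 28 of 367 control peaks in members (7.63%, 5.13 to 10.8) were overlapped by a knockdown peak, beside 3.85% of all genic control peaks. The 28 had a median length of 6033 bp and 62.0 tags per kb, and the 339 not overlapped had 2632 bp and 47.3 tags per kb. All genic control peaks showed the same order, with 6468 bp and 64.1 tags per kb against 2541 bp and 46.4.

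Within each list the peaks of members resembled other genic peaks. Control peaks in members had a median of 2756 bp, 47.9 tags per kb and a fold of 4.53 in the authors' table, beside 2597 bp, 46.7 and 4.34 for all genic peaks. Knockdown peaks in members had 1731 bp, 38.2 tags per kb and a fold of 4.21, beside 1615 bp, 36.7 and 4.11. Every peak had to pass the threshold of its own list, so these values do not compare the same sites between conditions.

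The mark lay toward the 3' end of the members in both lists. The direction of transcription was known for 199 of the 243 genes, and 194 of these were 5 kb or longer. Each was cut into 10 equal bins from 5' to 3'. In the 131 with a control peak the mean share under control peaks rose from 5.35% in bin 1 to 33.6% in bin 5 and 60.9% in bin 9, and was 47.5% in bin 10 and 26.7% in the 1 kb beyond the gene. In all marked protein-coding genes of this kind it was 8.195%, 42.1%, 54.2%, 53.5% and 37.2% at the same places. The last 3 bins were more covered than the first 3 in 107 of 131 members (81.7%), and in 77.4% of all marked genes.

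Knockdown coverage was concentrated in bins 7 to 10 of the members. In the 23 members of this kind with a knockdown peak it was 2.07% in bin 5, 15.8% in bin 7, 31.97% in bin 9 and 0.604% in the 1 kb beyond the gene. Over the 841 protein-coding genes with a knockdown peak it was 9.81%, 13.4%, 15.7% and 3.23%. Bin 9 held 54.8% in the 15 Zfp genes of this kind on chromosome 7 and 28.1% in the 8 on chromosome 4, so this place is not particular to the members. The last 3 bins were the more covered in 15 of the 23 members, the first 3 in 6, and 2 were even, beside 477 of 841 (56.7%) with more in the last 3. That count was 13 of 15 Zfp genes on chromosome 7 and 5 of 8 on chromosome 4. The knockdown peaks of Zfp2, Zfp810 and Zfp809 lay at 93.2%, 94.1% and 88.5% of the way from 5' to 3'. Those of Zfp951 lay at 88.7%, 58.9% and 11.6%, and the highest-scoring was that at 58.9%. Those of Zfp758, Zfp334 and Zfp451 lay at 12.7%, 19.7% and 25.5%. Those of Zfp560 and Zfp872, at 2.23% and 2.68%, lay at the 5' end. With genes cut into 3 equal parts, the first held 7 of 28 member knockdown peaks (25%) and the last held 16 (57.1%). Over all protein-coding genes these shares were 19.5% and 49.96%, so members had the larger share at both ends. With 23 genes the knockdown profile rests on few peaks. Exon positions were not used here, so whether the bins hold the finger exon was not examined.

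**Figure D4:**
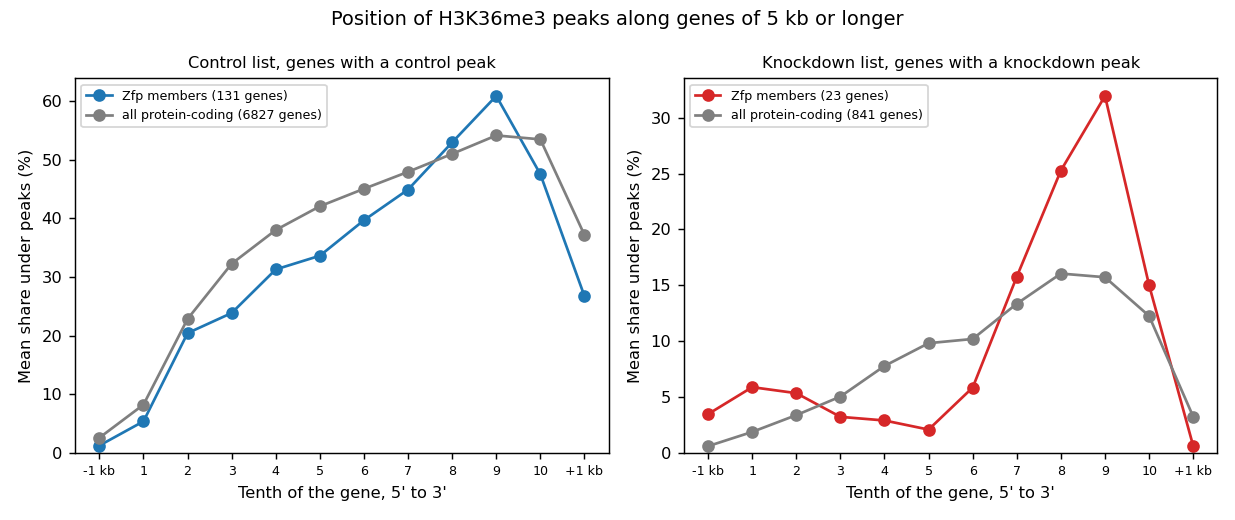
Mean percent of each place under peaks (vertical axis) along genes of 5 kb or longer, in the 1 kb before the gene, 10 equal bins from 5' to 3' and the 1 kb after it (horizontal axis); left, control peaks in genes with a control peak (131 members in blue, 6827 protein-coding genes in grey), and right, knockdown peaks in genes with a knockdown peak (23 members in red, 841 genes in grey). The highest member values are in bin 9 in both panels, 60.9% and 31.97%.

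Promoters were seldom under a peak. RefSeq promoter windows of 300 bp (GRCm38.p6) were found for 199 members, 244 windows in all. A control peak touched 5 windows (2.05%; all protein-coding genes, 1.71%), those of Zfp513, Zfp872, Zfp652, Zfp708 and 1 of 3 windows of Zfp57. A knockdown peak touched 1 (0.410%; all, 0.103%), that of Zfp872. The windows below are shown to set these beside promoters of marked genes that no peak touched, with each CpG in capitals, from 5' to 3'. The Zfp872 window (chr9:22187916-22188215, + strand) lies wholly under a peak in both lists and holds 17 CpG. The Zfp57 window (chr17:37003416-37003715, + strand) has 229 bp under a control peak and holds 4. The windows of Zfp42 (chr8:43306960-43307259, - strand, 11 CpG), Zfp281 (chr1:136624651-136624950, + strand, 27 CpG) and Zfp951 (chr5:104859978-104860277, - strand, 8 CpG) were free of peaks, although the genes were covered over 84.4%, 87.8% and 53.5% in control.
Zfp872: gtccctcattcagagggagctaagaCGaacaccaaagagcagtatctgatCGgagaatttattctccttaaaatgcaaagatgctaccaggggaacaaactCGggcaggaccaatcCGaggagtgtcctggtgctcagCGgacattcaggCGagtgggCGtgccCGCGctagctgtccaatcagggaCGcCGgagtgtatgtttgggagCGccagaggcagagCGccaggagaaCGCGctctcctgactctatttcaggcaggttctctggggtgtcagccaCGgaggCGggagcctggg
Zfp57: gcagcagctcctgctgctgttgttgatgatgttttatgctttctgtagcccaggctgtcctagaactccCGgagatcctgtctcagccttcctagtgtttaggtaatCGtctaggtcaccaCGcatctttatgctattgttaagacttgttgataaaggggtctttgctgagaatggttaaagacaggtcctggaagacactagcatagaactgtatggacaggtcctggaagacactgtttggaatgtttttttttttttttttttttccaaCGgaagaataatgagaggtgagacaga
Zfp42: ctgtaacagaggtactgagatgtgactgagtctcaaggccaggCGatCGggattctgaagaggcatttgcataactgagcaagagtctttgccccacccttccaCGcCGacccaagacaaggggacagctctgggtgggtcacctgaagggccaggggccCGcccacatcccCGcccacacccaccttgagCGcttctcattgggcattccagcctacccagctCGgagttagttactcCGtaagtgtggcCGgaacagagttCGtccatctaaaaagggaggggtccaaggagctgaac
Zfp281: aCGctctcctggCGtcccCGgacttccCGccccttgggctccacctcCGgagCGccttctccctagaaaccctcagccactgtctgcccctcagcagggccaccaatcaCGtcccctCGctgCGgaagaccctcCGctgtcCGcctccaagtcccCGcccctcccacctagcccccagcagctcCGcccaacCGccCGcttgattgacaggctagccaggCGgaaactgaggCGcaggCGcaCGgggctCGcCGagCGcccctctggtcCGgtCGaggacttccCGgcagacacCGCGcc
Zfp951: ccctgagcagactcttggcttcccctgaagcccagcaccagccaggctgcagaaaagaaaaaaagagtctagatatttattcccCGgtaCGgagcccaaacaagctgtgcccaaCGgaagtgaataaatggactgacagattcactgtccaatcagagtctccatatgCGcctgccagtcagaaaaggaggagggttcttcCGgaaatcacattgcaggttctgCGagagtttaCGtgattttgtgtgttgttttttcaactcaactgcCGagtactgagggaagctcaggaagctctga

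The Zfp57 window and the Zfp951 window thus hold few CpG and the Zfp281 window many. CpG content varied with the mark among members, as it did among all genes. The median window of members with a control peak held 16 CpG and that of members without one 10, beside 21 and 6 over all protein-coding genes. Isolated members had a median of 18, paired members 12 and clustered members 10. Windows with at least 10 CpG made up 75.7% in isolated and 57.1% in clustered members, beside 56.8% of all windows.

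Short motifs were counted on both strands of the same windows, after the other values had been seen. The ETS-type motif CCGGAAG, which includes 1 CpG, was present in 58 of 244 member windows (23.8%) and in 11.6% of all protein-coding windows. Among windows of members with a knockdown peak it was in 14 of 31 (45.2%). These 31 windows belong to 23 genes, and those of Zfp958, Zfp951, Zfp938 and Zfp809 overlap within the gene, so they are not independent counts. The share over all protein-coding genes with a knockdown peak was not computed for any motif, so the 45.2% has no such share beside it. The CCAAT box (CCAAT) was in 48.8% of member windows and 38.2% of all, the TATA box (TATAAA) in 6.97% and 12.6%, and the GC box (GGGCGG) in 44.7% and 46.2%. The NRF1-type motif GCGCATGC was in 3.28% and 3.52%, and the YY1-type motif in 2.05% and 1.21%. In the 31 windows of members with a knockdown peak the CCAAT box was in 20 (64.5%). Members were more often marked, so shares were also taken within genes with a control peak. There the TATA box was in 7.69% of member windows and 6.50% of all, and the GC box in 49.1% and 64.4%. The ETS-type motif was in 25.4% and 18.5%, and was also more frequent in members among unmarked genes. Without a control peak the TATA box was in 5.33% and 17.4%, and the GC box in 34.7% and 31.9%. The lower TATA share of members was thus seen only in genes without a control peak. A match describes letters in the window and is not a binding site.

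Among Zfp genes tied to stem cells, retroelements or imprinting, control peaks lay in 14 of 17 members (82.4%, 56.6 to 96.2) and knockdown peaks in 6 (35.3%, 14.2 to 61.7). All members had 67.1% and 12.3%, and all protein-coding genes 41.2% and 4.95%. The control interval includes the share of all members. Of the 14, 5 kept a peak (35.7%, 12.8 to 64.9), an interval that includes the 16.6% of all marked members. Besides Zfp57, Zfp445, Zfp809 and Zfp207, the knockdown peaks lay in Zfp217 (34.2% to 3.82%), an oncogenic transcription factor gene, and Zfp532 (11.4% to 2.25%), whose protein forms a chromatin complex with that of Zfp687. Zfp961 (70.0%) and Zfp609 (9.44%), a gene tied to the cohesin loader, had control peaks only, and Zfp827 had 3.37%. Zfp219 was covered over 19.8% by a control peak with its midpoint outside the gene, and Zfp932 had no covered base pair. This list was chosen with earlier results in view and its counts are not independent evidence.

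Among Zfp genes known from differentiation, control peaks lay in 2 of 8 members (25%, 3.19 to 65.1) and knockdown peaks in 0. The interval includes the 41.2% of all protein-coding genes, and the members' own share was 67.1%. Over the whole list, non-members included, 6 of 17 had a control peak (35.3%, 14.2 to 61.7) and 1 a knockdown peak (5.88%). Zfp365 was covered over 5.15% and Zfp423, a regulator of neural and adipose lineages, over 0.540% of its 300244 bp. Zfp503, Zfp488, Zfp521, Zfp467, Zfp703 and Zfp831 had none. The 5 longest members without a control peak were Zfp521 (285737 bp), Zfp800 (187486 bp), Zfp438 (124800 bp), Zfp831 (112151 bp) and Zfp608 (104547 bp), all 5 without a covered base pair in either list. The nearest control peak was 653346 bp from Zfp521, a partner of early B-cell and neural factors, and 18507 bp from Zfp800.

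Among genes that work with KRAB zinc finger proteins, control peaks lay in 17 of 20 corepressor pathway genes (85.0%, 62.1 to 96.8) and knockdown peaks in 7 (35.0%, 15.4 to 59.2), with 5 in both lists. The shares over all protein-coding genes were 41.2% and 4.95%. Setdb1, the H3K9 methyltransferase, went from 84.6% to 0, and Trim28, the corepressor, from 92.0% to 81.0%. Uhrf1, which guides maintenance methylation, went from 93.0% to 16.0% and Morc3 from 72.6% to 12.8%. Dnmt1 (0 to 2.92%) and Chd4 (0 to 8.56%) had a knockdown peak alone, 2 of the 20, beside 0.585% of all protein-coding genes. The 0 means that no control peak was called there and does not show that the mark was absent. Other zinc finger families had a control peak in 12 of 16 Zscan, 6 of 11 Zkscan, 28 of 41 Zbtb and 12 of 16 Zc3h genes, and a knockdown peak in 2, 0, 2 and 0 of them, to be read against the same shares of all genes.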

How the data were processed

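H3K36me3 ChIP and input libraries, 2 replicates of each per condition, were grouped by the labels' treatment, antibody and genotype. The submitters' processing notes name Bowtie 1.1.2, FastQC 0.11.5 and build mm10. Peak calling by the authors was run in MACS 1.4.2, per the file headers, on merged replicates against merged inputs with a p cutoff of 1e-05. The deposited tables give per peak a tag count, a score (minus 10 times the log10 of p), a fold over background (ratio) and an empirical FDR in percent. The BED files were not used.

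RefSeq genes of GRCm38.p6 were used, with strand from the RefSeq promoter table. A gene had a peak when a peak midpoint lay in it. The covered share is the percent of its length under peaks. Intervals are exact Clopper-Pearson at 95%, joined by square-and-add for differences, and cover counting error only. Python 3.11.15, numpy 2.4.6, pandas 2.3.3 and scipy 1.17.1 were used. The interval steps were tested on simulated data. Zinc finger numbers were not analysed here.

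Named members are the 15 highest by control-covered share, the 10 by control-covered length and the 25 by knockdown-covered share. Also named are those with a knockdown peak alone, the 5 longest without a control peak, the most covered isolated gene per chromosome, the 3 highest and 3 unmarked genes of the largest clusters, and listed genes. Members and lists were chosen with earlier results of these data known.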

Additional observations from a re-analysis of the deposited data

How the results depend on the processing

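No paired analysis was possible because the authors called peaks on merged replicates, and for the same reason no replicate could be left out. Of 39 alternatives, 30 stayed within the counting interval or within 1.5 times the count and 9 moved. A change of direction was scored only for the isolated minus clustered differences, and none of these changed sign. The order of members and all genes was not scored in this way, and for the kept share it changed at an FDR of 1% or less. With an FDR of 1% or less, 3 members had a knockdown peak and 1.89% of marked members kept one (all genes, 1.15% and 2.29%); in the knockdown list such peaks had low scores (median 53.5, others 85.2). With a caller score of 100 or more, 13 members had a knockdown peak and 8.51% kept one (all genes, 1.69% and 4.38%). With at least 10% of the gene covered, 14 members counted in knockdown and 8.84% kept it (all genes, 4.52% kept). With as many top-scoring control peaks as knockdown peaks, 44 members had a control peak and 38.6% of them a knockdown peak (all genes, 11.3% and 19.4%). Among the 155 members that overlap no other gene, 99 had a control peak, a share of 63.9%, beside 35.3% of all such protein-coding genes. It was scored as moved on the count in this smaller set, and the share lay within the main interval (60.8 to 73.0). Chosen after seeing the data, leaving out the 2 largest clusters changed the isolated minus clustered difference in control to 5.62 points and in knockdown to -6.65, and both intervals still included 0. With a score of 100 or more, or with 1 bp of the gene under a peak, the difference in control was 14.7 or 13.5 points, with intervals of 0.748 to 28.1 and 0.559 to 26.1 that did not include 0. Kept ChIP tags numbered 29416169 in knockdown and 36244210 in control, and the part of this depth in the knockdown counts was not tested.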
